A study of Mus musculus with 6 samples.

Results

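The prostaglandin genes of epididymal white adipose tissue (eWAT) described here are the 10 genes *Ptgs1*, *Ptgs2*, *Ptgds*, *Hpgds*, *Ptges*, *Ptges2*, *Ptges3*, *Ptgis*, *Hpgd* and *Ptgr1*, which encode enzymes that make or degrade prostaglandins. They were chosen by gene name, and all 10 were among the 16619 genes of the deposited expression table. RNA-seq compared eWAT of 6-month-old female mice of both genotypes. The labels call the depot epididymal although the mice were female, and the labels' name is kept here. WT mice carried floxed *Prmt5* alleles without Cre (Prmt5 flox/flox), and *Prmt5* AKO mice carried the same alleles with Adipoq-Cre. There were 3 WT libraries and 3 *Prmt5* AKO libraries, named here WT1 to WT3 and AKO1 to AKO3 after their replicate numbers. Adipoq-Cre acts in adipocytes, so the other cell types of the depot keep *Prmt5* and contribute RNA to every library. Neither the labels nor the methods tie each library to its own mouse, so the p-values measure only the spread between these libraries.

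Prostaglandins are short-lived lipid mediators made from arachidonic acid, which phospholipases A2 release from membrane phospholipids. The cyclooxygenases, encoded by *Ptgs1* and *Ptgs2*, convert it to prostaglandin H, and terminal synthases turn that common precursor into prostaglandins D, E, F, prostacyclin or thromboxane. In white fat, prostaglandin E made by adipocytes restrains lipolysis through a Gi-coupled receptor, while prostacyclin and the D-series products have been linked to adipocyte differentiation. The dehydrogenase encoded by *Hpgd* starts the inactivation of prostaglandins, and prostaglandin reductases complete it.

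Values are CPM, reads of a gene scaled to the authors' effective library sizes (depths corrected by 1 factor per library), and a list of 3 values runs from replicate 1 to replicate 3. The recovered reads per library ranged from 18731215 to 27445096. *Prmt5*, the deleted gene, was at 36.6, 59.7 and 39.7 CPM in WT and at 14.6, 22.0 and 28.5 CPM in *Prmt5* AKO, with a log2 fold change of -1.06 (SE, the standard error, 0.34, limma adjusted p = 0.436, exact two-sided permutation p = 0.1). Every *Prmt5* AKO library was below every WT library for it, in a gene-level value that also counts exons outside the deleted one. The adipocyte marker *Adipoq* was between 3194 and 5420 CPM in all 6 libraries, and the epithelial marker *Epcam* was at most 1.04 CPM. The 19 adipocyte markers summed to 81350 to 91381 CPM in WT and to 46374 to 61207 CPM in *Prmt5* AKO, without overlap, with 3 lower and 1 higher at an unadjusted p under 0.05. Of their log2 fold changes 10 were negative and 9 positive, with a median of -0.03. The sum rests on a few genes of high level, among them *Scd1* at 22194 to 23618 CPM in WT and 3009 to 4319 CPM in *Prmt5* AKO. The libraries differed within genotypes in nuclear-retained RNA. *Malat1* was at 1139, 98.1 and 338 CPM in WT and at 1330, 43.3 and 51.2 CPM in *Prmt5* AKO, so that WT1 and AKO1 stood above the rest. On the first principal component of all genes kept, with 64.5% of the variance, AKO1 was at -53.3, between WT1 at -74.6 and WT3 at -40.2, while WT2 at 26.1 was nearer to AKO2 at 61.0 and AKO3 at 81.0. WT and *Prmt5* AKO were tested against each other by limma on log2(CPM + 0.5), over 16109 genes that reached 0.5 CPM in 3 or more libraries. Log2 fold changes are *Prmt5* AKO minus WT on this scale, so they are too small for genes of low level. Genes counted as called when the p adjusted by Benjamini-Hochberg was under 0.05 and the log2 fold change was beyond 0.5 in size.

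None of the 10 prostaglandin genes was called by limma, and none of the 16109 genes kept was called either (0%). At an unadjusted p under 0.05, *Ptgs2* and *Ptgds* were lower in *Prmt5* AKO and no member was higher, where 8.72% of all genes passed that cutoff, 3.93% lower and 4.79% higher. The libraries of the genotypes did not overlap for 3 of the 10 members, *Ptgs2* and *Ptgds* with every *Prmt5* AKO library below WT and *Ptgr1* with every *Prmt5* AKO library above it, where 14.4% of all genes did not overlap (6.28% lower and 8.16% higher in *Prmt5* AKO). The members' log2 fold changes had a median of -0.15 with 7 negative and 3 positive, beside a median of -0.03 over all genes kept. edgeR's quasi-likelihood test on the recovered reads also called 0 genes, with 1347 at an unadjusted p under 0.05 beside 1404 by limma. All 10 members passed the filter on low values, but *Ptgs2* and *Ptgds* passed it through the WT libraries alone, with all 3 WT libraries and 0 *Prmt5* AKO libraries at or above 0.5 CPM.

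**Figure D1:**
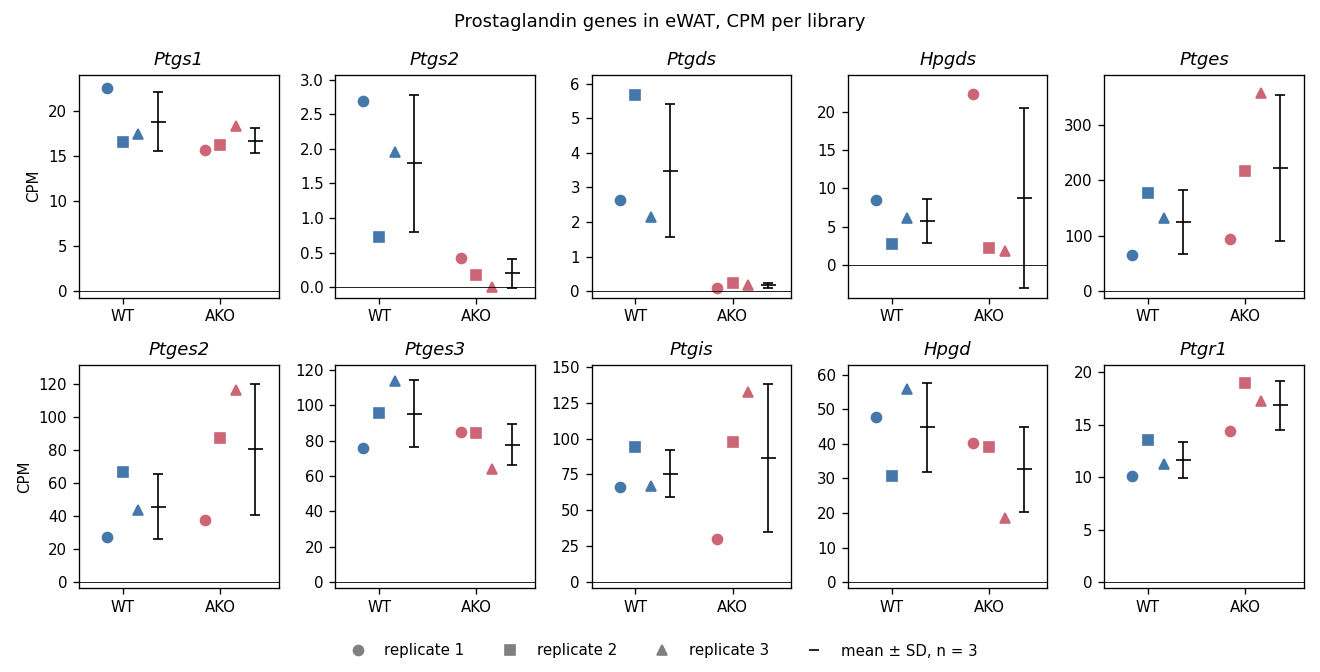
CPM (vertical axis, linear) of the 10 prostaglandin genes in the 3 WT (blue) and 3 *Prmt5* AKO (red) libraries, with circles, squares and triangles for replicates 1, 2 and 3 and black bars for the mean ± SD. The *Prmt5* AKO points lie below every WT point for *Ptgs2* and *Ptgds* and above every WT point for *Ptgr1*, while the points of the other 7 genes overlap, with AKO1 far above the rest for *Hpgds* at 22.4 CPM.

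The stretch of DNA before the start of *Ptgs2* and a short site after it are shown because *Ptgs2* and *Ptgds* were the 2 members at an unadjusted p under 0.05, and cyclic AMP, C/EBP and AP-1 inputs are among the classical routes to *Ptgs2* transcription. The sequences are RefSeq's on GRCm38.p6, and 9 of the 10 members matched a RefSeq promoter window of 250 bases before the start and 50 after. The capitals in the stretch before *Ptgs2* (chr1:150099781-150100030, plus strand) mark TTGCNNAA, the letters of a C/EBP site, which begin at position -69 from the start:
Ptgs2 upstream: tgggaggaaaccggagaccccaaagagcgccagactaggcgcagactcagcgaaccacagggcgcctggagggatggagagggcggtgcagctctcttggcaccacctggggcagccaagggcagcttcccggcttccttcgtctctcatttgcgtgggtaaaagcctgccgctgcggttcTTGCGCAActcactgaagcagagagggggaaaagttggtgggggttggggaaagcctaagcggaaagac
The capitals in the site after the start of *Ptgs2* (chr1:150100038-150100057, plus strand) hold an E-box, CACGTG, at position 17, overlapping TGACGT, the core letters of a cyclic AMP response element, which is read on the opposite strand and begins at position 13:
Ptgs2 site: ccactACGTCACGTGgagtc
For *Ptgds* (chr2:25469773-25469789, minus strand), the capitals mark TGANTCA, the letters of an AP-1 site, at position -35 from RefSeq's start at 25469749. The gene model used for positions here begins further upstream, at 25470046, so that the site lies inside it:
Ptgds site: aagccTGACTCAtaaat
These motifs were chosen after values had been seen and are a description of letters, not of binding. The letters of AP-1 and NF-kB sites were also searched in the window of *Ptgs2*, and neither was found there. Other motifs searched, a TATA box and a CCAAT box among them, were not found in that window either. The letters shown for *Ptgs2* are therefore only the matches of a wider search. Searched on both strands, TTGCNNAA was present in 10.8% of the 32851 RefSeq windows of the same 300 bases, CACGTG in 7.15%, TGACGT in 7.51% and TGANTCA in 7.81%. Among the other members, *Hpgds* held TTGCNNAA at position -176 and *Ptgr1* held it at -172, and *Ptges2* held CACGTG at -77.

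*Ptgs2* encodes the inducible cyclooxygenase and lies on chromosome 1, from 150100031 to 150108227 on the plus strand of GRCm38. Its level was 2.69, 0.719 and 1.96 CPM in WT and 0.417, 0.178 and 0 CPM in *Prmt5* AKO, a mean ± SD of 1.79 ± 0.995 against 0.199 ± 0.209 CPM (n = 3 libraries each). The *Prmt5* AKO libraries were all below the lowest WT library, WT2. Behind these levels were 63, 19 and 55 reads in the WT libraries, against 9, 4 and 0 reads in *Prmt5* AKO, and a count of 0 in AKO3 allows up to 0.142 CPM (3 reads). Summed over libraries, 137 WT reads against 13 *Prmt5* AKO reads, scaled by effective depth, gave a level 8.81-fold lower in *Prmt5* AKO, with a 95% interval from 4.98 to 17.0 that covers counting error only. By limma on log2(CPM + 0.5), which takes in the spread between libraries, the log2 fold change was -1.65 (SE 0.45, 95% interval -2.68 to -0.62), with an adjusted p of 0.382. The added 0.5 CPM makes this value smaller, so its interval is not one for the ratio of summed reads. With 0.1 CPM added the log2 fold change was -2.78, with 2 CPM it was -0.75, and by DESeq2 it was -3.17. The exact two-sided permutation test gave p = 0.1, the smallest that 3 libraries against 3 can give. In bulk tissue, fewer cells of a type and less RNA per cell cannot be told apart. Within each genotype *Ptgs2* was highest in WT1 and AKO1, as *Malat1* was. AKO1, with the most *Malat1* of the 6 libraries, was below every WT library for *Ptgs2*. Whether RNA quality or the nuclear share of the RNA took part in the *Ptgs2* levels was not tested. The study, which used edgeR and the same cutoffs, lists *Ptgs2* and *Ptgds* among its downregulated genes from these libraries, where limma here called neither. Since the libraries are the same, neither gene is independent evidence of a direction.

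*Ptgs1*, the constitutive cyclooxygenase (chromosome 2, 36230426 to 36252272, plus strand), was at 22.5, 16.5 and 17.4 CPM in WT and at 15.6, 16.2 and 18.3 CPM in *Prmt5* AKO. The genotypes overlapped, and the log2 fold change was -0.16 (SE 0.27, limma adjusted p = 0.791). It shares 148 exonic bases with *Gm43621* on the other strand, which was not analysed here, and whether the authors counted by strand is not given in the sources used here. *Ptgs1* gave most of the cyclooxygenase reads in every library. The share of *Ptgs2* among *Ptgs1* and *Ptgs2* reads was 10.7%, 4.18% and 10.1% in the WT libraries, against 2.60%, 1.09% and 0% in *Prmt5* AKO. For the 0 of 387 reads in AKO3, a share of up to 0.775% is allowed. The mean shares were 8.32% ± 3.60 in WT and 1.23% ± 1.31 in *Prmt5* AKO (SD, n = 3 each). With *Ptgs1* at overlapping levels, the share restates the *Ptgs2* difference and was not tested. By counting error alone WT2 (4.18%, exact Clopper-Pearson 95% interval 2.53% to 6.44%) and AKO1 (2.60%, 1.20% to 4.88%) overlapped. Since the libraries hold PCR-amplified reads without molecular identifiers, such intervals cover counting error only.

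*Ptgds* encodes the lipocalin-type prostaglandin D synthase, a secreted protein that also binds small lipophilic ligands, at chromosome 2, 25466709 to 25470046, minus strand. Its levels were 2.65, 5.68 and 2.13 CPM in WT and 0.0928, 0.223 and 0.189 CPM in *Prmt5* AKO (3.49 ± 1.92 against 0.168 ± 0.0675 CPM, mean ± SD, n = 3 each). The highest *Prmt5* AKO library was far below the lowest WT library, and among WT libraries WT2 was the highest, where *Ptgs2* had its lowest WT level. Reads numbered 62, 150 and 60 in the WT libraries, against 2, 5 and 4 in *Prmt5* AKO. Over the summed reads, 272 against 11, the level was 20.7-fold lower in *Prmt5* AKO (95% counting interval 11.4 to 41.9). The log2 fold change was -2.48 (SE 0.40, 95% interval -3.40 to -1.56), with an unadjusted p of 0.000246 and an adjusted p of 0.174 by limma, and an exact two-sided permutation p of 0.1. *Ptgds* passed the threshold by edgeR's likelihood ratio test (-4.33, adjusted p = 2.80e-05), which called 1.01% of all genes, and by DESeq2 (-4.37, adjusted p = 6.33e-06), which called 1.87%. Neither tool called *Ptgs2*, at adjusted p-values of 0.0913 and 0.0807. A block on the replicate number let limma call *Ptgds* (and 0.801% of all genes), let edgeR's quasi-likelihood test call it (0.36%), and let the likelihood ratio test call both *Ptgds* and *Ptgs2* (4.26%).

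*Hpgds*, the haematopoietic prostaglandin D synthase found in mast cells, macrophages and some T cells (chromosome 6, 65117293 to 65144908, minus strand), was at 8.45, 2.73 and 6.05 CPM in WT and at 22.4, 2.14 and 1.79 CPM in *Prmt5* AKO. AKO1 was the highest of the 6 libraries, 12.5 times AKO3, and the other *Prmt5* AKO libraries were below every WT library. Its log2 fold change was -0.15 (SE 0.87, limma adjusted p = 0.939), and without AKO1 it was -1.22 (SE 0.47, adjusted p = 0.106). On the recovered reads, both edgeR tests without a block and DESeq2 gave it the opposite sign, at 0.60 to 0.61 on the log2 scale, past no threshold, while the edgeR tests with the replicate block gave -0.20 and -0.22. The mast cell markers summed to 108, 132 and 97.9 CPM in WT and to 142, 71.5 and 89.2 CPM in *Prmt5* AKO. Their sum was highest in AKO1 like *Hpgds*, but among the WT libraries it was highest in WT2, where *Hpgds* was lowest. Of 10 mast cell markers kept, 0 were at an unadjusted p under 0.05. The defining mast cell genes *Cpa3*, *Mcpt4* and *Kit* were between 5.84 and 27.9 CPM in all 6 libraries, and *Mrgprb1* and *Mrgprb2* were at 0 in AKO3. Of the 19 macrophage markers, *Gpnmb* and *Itgax* were also highest in AKO1, at 106 and 30.6 CPM, but the list as a whole was not. Its sum was 2692 CPM in AKO1, the lowest of the *Prmt5* AKO libraries and below WT2 and WT3, and it was highest in AKO3. The sums ranged from 1873 to 3492 CPM in WT and from 2692 to 4392 CPM in *Prmt5* AKO, with 2 of the 19 genes lower and 3 higher at an unadjusted p under 0.05. *Malat1* was also highest in AKO1, followed by WT1, WT3 and WT2 as for *Hpgds*, with AKO2 and AKO3 lowest for both genes. The part of these cells, of RNA quality or of the nuclear share of the RNA in the *Hpgds* values was not tested.

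Because the synthases of prostaglandin D differed so much between libraries, their reads were also taken as a pair. *Ptgds* gave 23.8%, 67.6% and 26.1% of *Ptgds* and *Hpgds* reads in the WT libraries, against 0.413%, 9.43% and 9.52% in *Prmt5* AKO. The *Prmt5* AKO shares were all below the WT shares, with means of 6.46% ± 5.23 and 39.2% ± 24.6 (SD, n = 3 each). This restates the *Ptgds* difference above and was not tested. Within each genotype 1 library stood apart, WT2 above the others and AKO1, which held 482 *Hpgds* reads, below them. The pairs held only 42 to 484 reads per library, and the widest interval was that of AKO3, 2.66% to 22.6%.

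**Figure D2:**
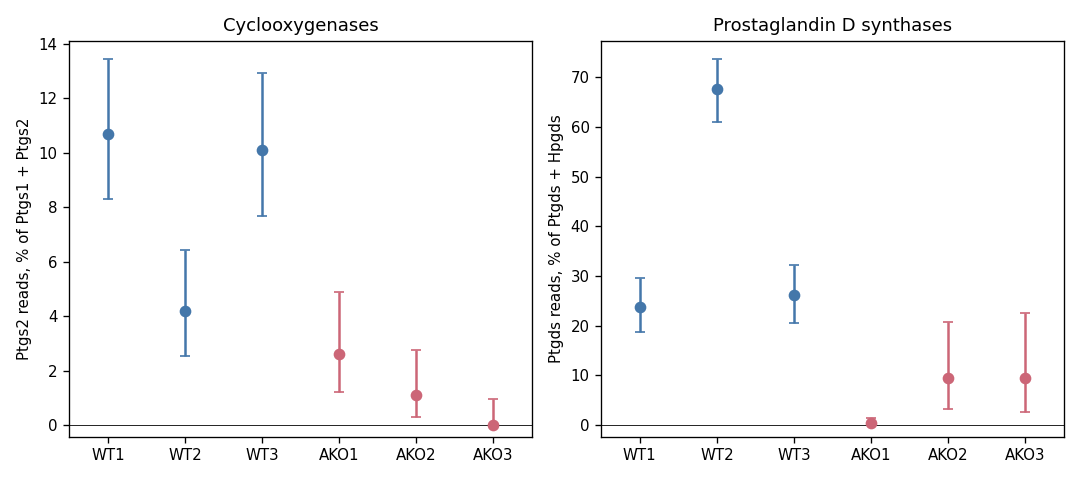
Share in percent (vertical axis) of *Ptgs2* reads among both cyclooxygenases (left) and of *Ptgds* reads among both prostaglandin D synthases (right) in each library, with exact 95% binomial intervals as bars. Every *Prmt5* AKO share (red) lies below every WT share (blue) in both panels, and the intervals of WT2 and AKO1 overlap on the left.

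*Ptges* encodes the microsomal prostaglandin E synthase that is coupled to inducible cyclooxygenase activity, and lies on the minus strand of chromosome 2, 30889471 to 30929863. It was at 64.9, 178 and 133 CPM in WT and at 94.4, 217 and 357 CPM in *Prmt5* AKO. AKO2 and AKO3 were above every WT library and AKO1 was below WT2 and WT3, so the genotypes overlapped. The log2 fold change was 0.75 (SE 0.55, limma adjusted p = 0.619), 1.27 without AKO1 (adjusted p = 0.0850), 0.34 without WT1 and 0.31 without AKO3. *Ptges2*, which encodes another membrane-associated prostaglandin E synthase (chromosome 2, 32395896 to 32405772, plus strand), was at 27.2, 66.5 and 43.4 CPM in WT and at 37.6, 87.4 and 116 CPM in *Prmt5* AKO, with a log2 fold change of 0.75 (SE 0.48, limma adjusted p = 0.610). Its log2 fold change was 1.22 without AKO1 (adjusted p = 0.0737), 0.43 without WT1 and 0.42 without AKO3. The 6 libraries fell in the same order for *Ptges* and *Ptges2*, with WT1 and AKO1 the lowest, and these were the libraries with the most *Malat1*. Whether RNA quality or the nuclear share of the RNA took part in these levels was not tested.

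*Ptges3* encodes the cytosolic prostaglandin E synthase, better known as the HSP90 co-chaperone p23 (chromosome 10, 128058954 to 128077272, plus strand). Its levels were 76.1, 95.8 and 114 CPM in WT and 84.7, 84.4 and 64.2 CPM in *Prmt5* AKO. The genotypes overlapped (log2 fold change -0.28, SE 0.27, limma adjusted p = 0.659), and the order of its libraries was not that of the membrane-bound E synthases. Its pseudogene *Ptges3-ps* was listed at 2.69 to 6.65 CPM, so reads may have been split between them.

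*Ptgis*, the prostacyclin synthase of vessels and stroma (chromosome 2, 167191805 to 167240604, minus strand), was at 65.9, 94.2 and 66.6 CPM in WT and at 30.3, 97.4 and 132 CPM in *Prmt5* AKO. AKO1 was the lowest and AKO3 the highest of the 6 libraries. The log2 fold change was -0.03 (SE 0.52, limma adjusted p = 0.982), and 0.60 (SE 0.28, adjusted p = 0.157) without AKO1. It shares 156 exonic bases with the antisense transcript *1110018N20Rik*, which was at 3.12 to 7.13 CPM. Smooth muscle and pericyte markers summed to 1307 to 2181 CPM in WT and 1935 to 3340 CPM in *Prmt5* AKO, with 4 of 13 higher at an unadjusted p under 0.05. Like *Ptgis* their sum was highest in AKO3, but it did not follow *Ptgis* in the other libraries. It was lowest in WT2, where *Ptgis* had its highest WT level, and AKO1, the lowest library for *Ptgis*, was at 1935 CPM, above WT2 and WT3. Endothelial markers summed to 976 to 1342 CPM in WT and 1020 to 1213 CPM in *Prmt5* AKO, with 2 of 13 lower and 0 higher at an unadjusted p under 0.05. The part of these cell types in the *Ptgis* values was not tested.

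The breakdown enzymes were on both sides of 0. *Hpgd*, the dehydrogenase that oxidises prostaglandins as the first step of their inactivation (chromosome 8, 56294585 to 56321043, plus strand), was at 47.9, 30.7 and 56.0 CPM in WT and at 40.2, 39.2 and 18.5 CPM in *Prmt5* AKO. The lowest value was in AKO3 and the genotypes overlapped (log2 fold change -0.49, SE 0.39, limma adjusted p = 0.629). Without AKO3 the log2 fold change was -0.13. *Ptgr1*, a reductase that acts on the resulting keto-prostaglandins and also inactivates leukotriene B4 (chromosome 4, 58965439 to 58987119, minus strand), was at 10.2, 13.6 and 11.3 CPM in WT and at 14.4, 19.0 and 17.3 CPM in *Prmt5* AKO (11.7 ± 1.73 against 16.9 ± 2.33 CPM, mean ± SD, n = 3 each). Every *Prmt5* AKO library was above every WT library, with AKO1 just above WT2. The log2 fold change was 0.52 (SE 0.28, 95% interval -0.13 to 1.16), the limma adjusted p was 0.601 and the exact two-sided permutation p was 0.1.

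**Figure D3:**
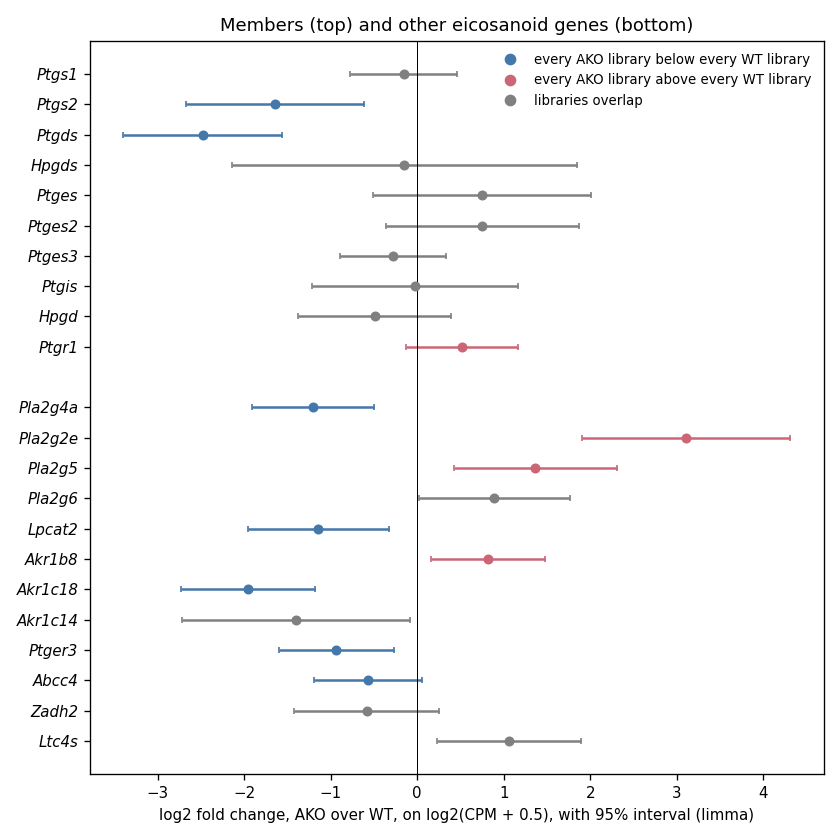
Log2 fold change of *Prmt5* AKO over WT (horizontal axis, on log2(CPM + 0.5)) with limma's 95% interval as bars for the 10 prostaglandin genes (top) and 12 other eicosanoid genes (bottom), coloured by whether the libraries of the genotypes overlap. Of the 10 members only the intervals of *Ptgs2* and *Ptgds* lie wholly on one side of 0, and none of the genes shown had an adjusted p under 0.05 by limma.

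Levels of different genes were set side by side only per kilobase of exon. In WT the highest were *Ptges3* at 43.0 ± 8.54, *Ptges* at 31.9 ± 14.5, *Ptgis* at 29.4 ± 6.28 and *Hpgd* at 26.7 ± 7.68 CPM per kilobase (mean ± SD, n = 3), and the SD ranges of neighbours in that order overlapped. *Ptges2* followed at 9.04 ± 3.91, below *Hpgd* beyond the spread, then *Ptgr1* at 5.08 ± 0.753 and *Ptgs1* at 4.84 ± 0.829 CPM per kilobase, which did not differ beyond their spread from each other or from *Ptges2*. The lowest were *Ptgds* at 2.11 ± 1.16, *Hpgds* at 0.894 ± 0.447 and *Ptgs2* at 0.390 ± 0.217 CPM per kilobase, of which *Ptgds* was below *Ptgs1* beyond the spread while the SD ranges of neighbours among these 3 overlapped. In *Prmt5* AKO the highest levels were again those of *Ptges* (56.7 ± 33.5), *Ptges3* (35.1 ± 5.29), *Ptgis* (33.7 ± 20.2) and *Hpgd* (19.4 ± 7.28 CPM per kilobase). *Ptgds* stood there at 0.102 ± 0.0409 and *Ptgs2* at 0.0434 ± 0.0457 CPM per kilobase, below *Hpgds* at 1.36 ± 1.83, whose SD was larger than its mean.

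**Figure D4:**
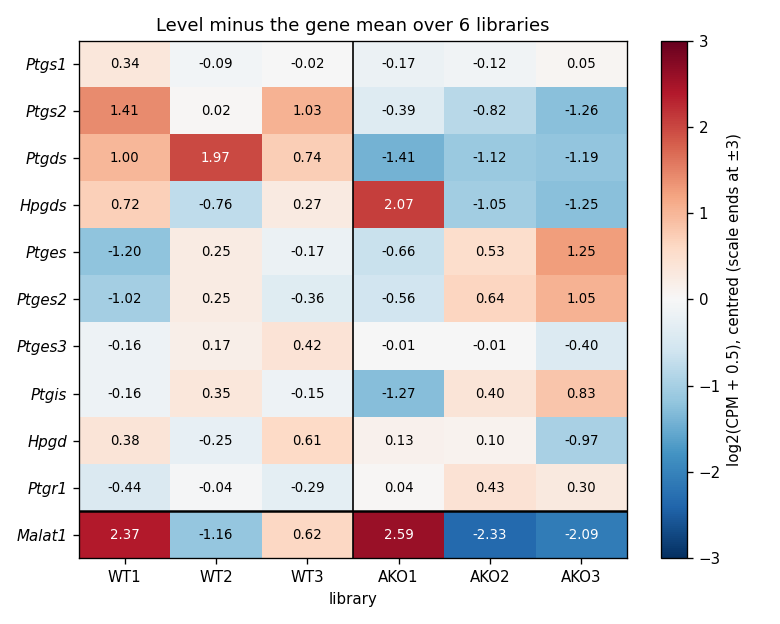
Log2(CPM + 0.5) of each prostaglandin gene in each library minus the gene's mean over the 6 libraries, with *Malat1* in the bottom row, on a colour scale that ends at 3 and -3. *Ptgs2* and *Ptgds* are below their means in all 3 *Prmt5* AKO libraries, *Hpgds* is 2.07 above its mean in AKO1, and *Ptges* and *Ptges2* are lowest in WT1 and AKO1, where *Malat1* is highest. Within each genotype *Ptgs2* and *Hpgds* are highest in WT1 and AKO1.

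The genes whose profile over the 6 libraries was most like that of *Ptgs2*, among those of at least 1 CPM on average, were *Cdnf*, *Opcml*, *Acsm3*, *Flrt2* and *Vgll3*. Their centred log2(CPM + 0.5) values differed from those of *Ptgs2* by a root mean square of 0.14 for *Cdnf* to 0.22 for *Vgll3*. *Cdnf*, a neurotrophic factor gene, was at 8.11, 3.14 and 5.66 CPM in WT and at 1.81, 0.981 and 0.708 CPM in *Prmt5* AKO. *Acsm3*, a medium-chain acyl-CoA synthetase gene, was at 44.2, 15.1 and 28.4 CPM in WT and at 11.9, 5.75 and 5.34 CPM in *Prmt5* AKO. Within each genotype these genes, like *Ptgs2*, were highest in WT1 and in AKO1. *Ptgds* was most like *Scd1*, *Wdr95*, *Akr1c18*, *Gpt* and *Ldhd*, at root mean square differences of 0.38 for *Scd1* to 0.48 for *Ldhd*. *Scd1*, the stearoyl-CoA desaturase of adipocytes, was at 23618, 22902 and 22194 CPM in WT and at 3009, 4303 and 4319 CPM in *Prmt5* AKO. *Gpt*, an alanine aminotransferase gene, was at 143, 223 and 135 CPM in WT and at 50.4, 44.5 and 56.4 CPM in *Prmt5* AKO, highest in WT2 as *Ptgds* was. These likenesses are descriptions over 6 libraries that share their depth and RNA quality within a library.

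Marker lists of other cell types are set beside these values, with no marker called by limma, against 3.93% of all genes lower and 4.79% higher at the same unadjusted cutoff. Of the 20 fibroblast and adipocyte progenitor markers 6 were lower in *Prmt5* AKO at an unadjusted p under 0.05 and 0 were higher, and their sums were 5399 to 8256 CPM in WT and 4015 to 4747 CPM in *Prmt5* AKO, with none of the markers at 0. Of their log2 fold changes 15 were negative and 5 positive. *Dpp4*, a defining progenitor marker and the gene with the smallest p of that list, was at 81.3, 31.8 and 46.8 CPM in WT and at 16.7, 15.7 and 15.4 CPM in *Prmt5* AKO. All 15 mesothelial markers had a negative log2 fold change, 2 of them at an unadjusted p under 0.05, but their sums overlapped, from 356 to 548 CPM in WT and from 130 to 631 CPM in *Prmt5* AKO. T and NK cell markers went the other way, with 7 of 15 higher at an unadjusted p under 0.05 and sums of 21.3 to 35.8 CPM in WT against 48.8 to 123 CPM in *Prmt5* AKO. The part of these cell types in the *Ptgs2* and *Ptgds* values was not tested.

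The rest of the pathway was read from lists of its genes, and by limma no gene of these lists was called. Their counts at an unadjusted p under 0.05 stand beside 3.93% of all genes lower and 4.79% higher, and 14.4% of all genes did not overlap. Genes of these lists are named for a small p, so the separation of their libraries is no separate evidence. Of the 17 genes named from these lists and those of regulators and immediate early genes, other fits called some. DESeq2 called *Pla2g2e*, *Akr1c18*, *Pla2g4a* and *Pla2g5* (adjusted p = 2.79e-07, 0.000614, 0.00998 and 0.0490), and edgeR's likelihood ratio test called *Pla2g2e* and *Akr1c18* (9.56e-06 and 0.00343). Both of these were also called by limma with the replicate block (0.00531 and 0.0316), and *Pla2g2e* by limma without AKO1 (0.0127) and by edgeR's quasi-likelihood test with the block (0.0166). The likelihood ratio test with the block called *Pla2g2e*, *Akr1c18*, *Pla2g4a*, *Ltc4s* and *Klf4*. Among genes for the release and re-esterification of arachidonic acid, 17 were kept, of which 2 were lower and 3 higher in *Prmt5* AKO at an unadjusted p under 0.05 (median log2 fold change 0.04). *Pla2g4a*, the cytosolic phospholipase A2 that supplies cyclooxygenases with arachidonic acid, was at 17.6, 11.96 and 14.6 CPM in WT and at 6.77, 6.38 and 5.05 CPM in *Prmt5* AKO, with a log2 fold change of -1.20 (SE 0.30, limma adjusted p = 0.347), with no overlap. *Pla2g2e*, a secreted phospholipase A2, was at 2.09, 3.48 and 3.42 CPM in WT and at 12.7, 52.4 and 36.8 CPM in *Prmt5* AKO, all 3 above WT (3.11, SE 0.52, limma adjusted p = 0.195). The study names both genes on these libraries too. The secreted *Pla2g5* (1.37) and the calcium-independent *Pla2g6* (0.89) also had positive log2 fold changes. *Lpcat2*, an acyltransferase that returns acyl chains to lysophospholipids and makes platelet-activating factor, had one of -1.14.

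Of the other prostanoid synthases and reductases 9 were kept, of which 2 were lower and 1 higher at an unadjusted p under 0.05 (median log2 fold change 0.17). *Akr1c18*, a hydroxysteroid dehydrogenase of the aldo-keto reductase family, was at 2.86, 3.67 and 3.06 CPM in WT and at 0.464, 0.713 and 0.236 CPM in *Prmt5* AKO, without overlap (-1.95, SE 0.34, limma adjusted p = 0.202). *Akr1b8*, another aldo-keto reductase, was at 23.2, 30.8 and 24.5 CPM in WT and at 34.3, 55.6 and 51.7 CPM in *Prmt5* AKO (0.82, SE 0.29, limma adjusted p = 0.484). For *Akr1c14* the WT libraries themselves spread from 11.8 to 68.6 CPM, and the genotypes overlapped (-1.40, or -0.77 without WT3).

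Among 8 prostanoid receptors kept, 1 was lower at an unadjusted p under 0.05 and 0 were higher (median log2 fold change -0.28). That gene was *Ptger3*, the Gi-coupled prostaglandin E receptor through which adipocyte lipolysis is restrained. It was at 81.5, 50.0 and 79.4 CPM in WT and at 33.7, 42.8 and 31.5 CPM in *Prmt5* AKO, with every *Prmt5* AKO library below WT (-0.93, SE 0.29, limma adjusted p = 0.426). The 5 genes kept for prostaglandin transport and other breakdown had 0 at an unadjusted p under 0.05 and a median log2 fold change of -0.57. *Abcc4*, an exporter of prostaglandins, was at 12.97, 13.9 and 14.1 CPM in WT and at 8.63, 8.56 and 9.96 CPM in *Prmt5* AKO, which did not overlap (-0.57, SE 0.27, limma adjusted p = 0.590). *Zadh2*, a further prostaglandin reductase gene, overlapped between genotypes (-0.58, SE 0.36).

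In the lipoxygenase and leukotriene branch, which competes for the same arachidonic acid, 12 genes were kept and 1 was higher at an unadjusted p under 0.05 (median log2 fold change -0.17). *Ltc4s*, the leukotriene C4 synthase, was at 37.9, 81.9 and 50.0 CPM in WT and at 80.4, 144 and 125 CPM in *Prmt5* AKO (1.06, SE 0.36, limma adjusted p = 0.473). WT2 was just above AKO1, so the genotypes overlapped, and like *Ptges* it was lowest within each genotype in replicate 1.

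**Figure D5:**
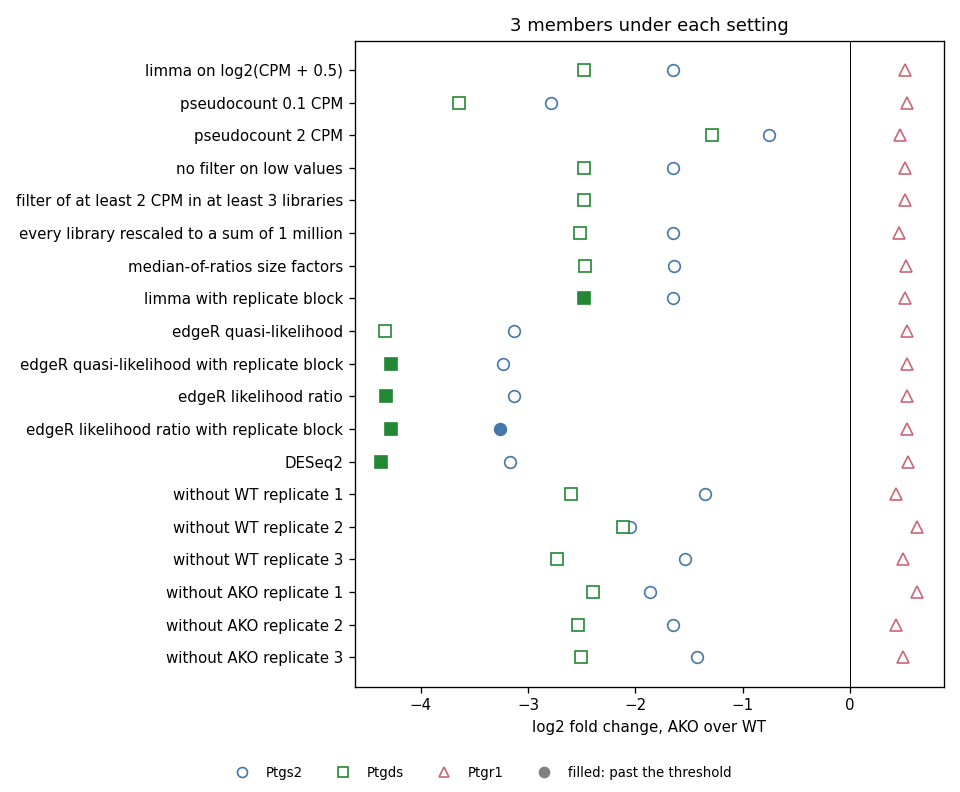
Log2 fold change (horizontal axis) of *Ptgs2* (blue circles), *Ptgds* (green squares) and *Ptgr1* (red triangles) under limma on log2(CPM + 0.5) and each alternative (vertical axis), filled where the adjusted p was under 0.05 with an absolute log2 fold change above 0.5. *Ptgs2* and *Ptgds* are negative and *Ptgr1* is positive under every setting drawn, *Ptgds* is filled in 5 of them and *Ptgs2* in 1, and no *Ptgs2* value exists for the 2 CPM filter, which removed it. Since the genotypes did not overlap for these genes, leaving out 1 library could not turn the sign.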

How the data were processed

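RNA-seq of eWAT from 3 WT and 3 *Prmt5* AKO females was used. Per the study's methods and processing notes, the authors ran FastQC 0.11.9 and Trim Galore 0.6.0, aligned reads to GRCm38 with STAR 2.7.10a (GENCODE release 25), kept unique pairs of mapping quality 10 or more with ngsutilsj 0.5.9, and counted reads of the poly(A)-selected RNA per gene with featureCounts of Subread 2.0.1. A batch correction is mentioned there without a batch. The authors deposited a signal value per gene and library, CPM on effective library sizes, while plain CPM had been assumed for the design, and the log-scale test was kept. In every library 100% of values were whole reads within 0.05 of a read. The authors' columns of fold changes, likelihood ratios, p-values and FDR, and their lists of enriched terms, hold their own comparisons and were not used.

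Genes were compared with limma 3.58.1 (lmFit, eBayes with trend), p-values were adjusted by Benjamini-Hochberg over all genes kept, and the cutoffs are the study's. Over all genes kept, log2 fold changes had a median SE of 0.37. The alternatives were pseudocounts of 0.1 and 2 CPM, no filter or one at 2 CPM, other scalings, the replicate number as a block, edgeR 4.0.16 and DESeq2 1.42.0 on recovered reads, and each library left out. The limma and edgeR quasi-likelihood fits were tested on simulated counts with the same dispersion for every gene. Those counts hold no differences in RNA quality between libraries, so they do not show how the fits behave on these libraries. All 10 members are named; from each pathway list, genes at an unadjusted p under 0.05 or, where there were none, the 2 with the smallest p; and the 5 genes most like *Ptgs2* and *Ptgds*. Members and lists were chosen with earlier results of these data known. Positions and exon lengths are from GENCODE release 21 on GRCm38, and promoter sequences are RefSeq's, with *Ptgis* unmatched. R was version 4.3.3 and Python 3.11.15, with matplotlib 3.10.9, pandas 2.3.3, scipy 1.17.1 and numpy 2.4.6.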

Additional observations from a re-analysis of the deposited data

How the results depend on the processing

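Under every alternative that tested them, *Ptgs2* and *Ptgds* kept their lower level in *Prmt5* AKO and *Ptgr1* its higher one, with log2 fold changes without 1 library of -2.05 to -1.35, -2.73 to -2.11 and 0.43 to 0.62. The genotypes did not overlap for these genes, so leaving out 1 library could not turn the sign. The constant direction is therefore no further evidence of a difference. Adjusted p-values spanned 0.00435 to 0.963 for *Ptgs2*, 1.06e-07 to 0.868 for *Ptgds* and 0.161 to 0.998 for *Ptgr1*. *Ptgds* passed the threshold by edgeR's likelihood ratio test (-4.33) and DESeq2 (-4.37). Whether the replicate numbers pair the libraries is not given in the labels. Deviations of same-numbered libraries from their genotype mean correlated at 0.68, 0.57 and -0.11. These values cannot decide it, because deviations from a mean of 3 libraries depend on each other. With the replicate block *Ptgds* passed by limma (-2.48, adjusted p = 0.0159), by edgeR's likelihood ratio test (-4.28) and by quasi-likelihood (-4.28, 0.0344), and only the likelihood ratio fit passed *Ptgs2* (-3.26) and *Prmt5* (-1.08, 0.0370). So 1 of the 10 members was called by limma and quasi-likelihood with the block, by likelihood ratio and by DESeq2, and 2 by likelihood ratio with the block. The counts over all genes, 0 by limma, were 129 with its block, 58 by quasi-likelihood with the block, 162 and 686 by likelihood ratio without and with it, 301 by DESeq2, and 0 to 84 without 1 library, 84 of them without AKO1. *Hpgds* turned to 0.61 (both edgeR tests without block) and 0.60 (DESeq2), but not with the block (-0.20 and -0.22), and spanned -1.22 to 0.44 without 1 library. *Ptgis* turned to 0.20 (both edgeR tests without block) and 0.21 (DESeq2), and spanned -0.45 to 0.60. The cause was not tested. *Ptgs2* and *Ptgds* rest on at most 9 reads per *Prmt5* AKO library.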

Other observations

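Genes that act on *Ptgs2* and *Ptges* transcription or mRNA, and the immediate early genes to which *Ptgs2* is usually counted, were read as separate lists. Of 21 regulators kept, 2 were lower and 1 higher in *Prmt5* AKO at an unadjusted p under 0.05 (median log2 fold change -0.18), and of 26 immediate early genes kept 3 were lower and 0 higher (median -0.27). Over all genes 3.93% were lower and 4.79% higher at that cutoff, and 14.4% did not overlap. The genes below are named for passing the cutoff, so the separation of their libraries is no separate evidence. None was called by limma, and *Klf4* was called by edgeR's likelihood ratio fit once it held the replicate block (adjusted p = 0.0208). *Egr1*, a zinc finger factor of the immediate early response, is in both lists and was at 89.0, 42.2 and 18.6 CPM in WT and at 13.2, 18.3 and 15.96 CPM in *Prmt5* AKO, with a log2 fold change of -1.37 (SE 0.52, limma adjusted p = 0.515). The genotypes did not overlap, but WT3 was within 1 CPM of AKO2, and without WT1 the log2 fold change was -0.82. *Nr4a1*, an immediate early nuclear receptor, was at 28.1, 9.58 and 13.4 CPM in WT and at 5.80, 8.43 and 5.76 CPM in *Prmt5* AKO (-1.17, SE 0.43, limma adjusted p = 0.502), or -0.74 without WT1. *Klf4*, a Krüppel-like factor, had a log2 fold change of -1.04 with overlapping genotypes. *Cebpb*, which encodes a transcription factor of the C/EBP family, was at 57.4, 93.7 and 90.4 CPM in WT and at 109, 140 and 142 CPM in *Prmt5* AKO, every *Prmt5* AKO library above WT (0.71, SE 0.29, limma adjusted p = 0.542). *Zfp36l1*, whose product speeds the decay of mRNAs with AU-rich elements, was at 182, 160 and 145 CPM in WT and at 119, 105 and 94.1 CPM in *Prmt5* AKO, without overlap (-0.61, SE 0.24, limma adjusted p = 0.535).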
